A study of Mus musculus with 2 samples.

Results

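Cytosolic ribosomal protein genes were taken as protein-coding genes named Rpl or Rps with a number and an optional letter or l suffix, together with Rplp0 to Rplp2 and Rpsa. This naming rule found 83 genes among the 43346 genes with Ensembl identifiers in the tables, and kinases and pseudogenes of similar name stayed out. Of these, 76 were treated as core members, 46 of the large and 30 of the small subunit, and the other 7 are paralogs of a core gene. Forebrain was dissected from B6NCrl mouse embryos at 16.5 days of gestation, labelled healthy, with male and female embryos mixed. The study has 1 group of 2 libraries, each from its own pool of embryos, and the second pool held 41 embryos. Total RNA above 200 nt was sequenced from 10 ng per library with spike-in RNAs added. No comparison of conditions exists, so levels are described and the libraries are set against each other without a p-value.

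The cytosolic ribosome joins a small subunit, which reads the mRNA, with a large subunit, which forms peptide bonds, and each core protein is present in it as a single copy apart from the acidic stalk proteins. Most of these proteins are needed for the assembly of their subunit, and loss of a single allele of several of them causes Diamond-Blackfan anaemia, a failure of red cell production. Their mRNAs usually begin with a C followed by pyrimidines, the terminal oligopyrimidine (TOP) tract, through which mTOR and LARP1 control translation. In embryonic brain, growth of progenitors and of young neurons depends on ribosome supply.

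The start sites of core members often held such a run. RefSeq promoters (build GRCm38.p6, 250 bases before and 50 after the annotated start) were found for 63 members, 56 of them core. A C followed by at least 5 pyrimidines, with the C within 10 bases of the start on the gene's strand, occurred in 30 of the 56 core promoters (53.6%), in 23.5% of 68 promoters of mitochondrial ribosomal protein genes, in 19.3% of 10124 promoters of other expressed protein-coding genes and in 19.2% of all 32851 promoters. These windows show the 30 bases before the annotated start and the first 20 bases after it, with the run in capitals. They were chosen to set genes of high and low mRNA level side by side.
Rps18: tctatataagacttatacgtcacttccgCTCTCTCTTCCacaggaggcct
Rpl38: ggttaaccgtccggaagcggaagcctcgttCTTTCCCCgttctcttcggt
Rpl13a: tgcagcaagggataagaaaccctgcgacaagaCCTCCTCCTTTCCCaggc
Rps27: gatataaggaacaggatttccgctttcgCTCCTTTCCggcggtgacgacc
Rpl27a: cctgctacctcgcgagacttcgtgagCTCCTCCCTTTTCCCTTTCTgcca
Rpl41: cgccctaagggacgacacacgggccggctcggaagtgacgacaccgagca
Rplp0: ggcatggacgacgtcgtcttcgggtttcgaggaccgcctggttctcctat

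The windows lie at chr17:33955646-33955695 (minus strand) for Rps18, chr11:114668550-114668599 (plus) for Rpl38, chr7:45128726-45128775 (minus) for Rpl13a, chr3:90213629-90213678 (minus) for Rps27, chr7:109519165-109519214 (plus) for Rpl27a, chr10:128549149-128549198 (minus) for Rpl41 and chr5:115559437-115559486 (plus) for Rplp0. Rpl27a, whose mRNA was second lowest of the core as listed, carried the longest run of the 7, 20 bases. Rpl41, the highest, and Rplp0, the eighth highest, had no match in this window, which says only that these letters are not there. Among genes not shown, Rpl5, the lowest as listed, had no match within 10 bases. Rpl12, the third lowest, had a run of 6 bases, and Rps19, the second highest, a run of 7. A relation between run and level was not tested. The RefSeq start lay within 50 bases of the annotated start of the transcript with the largest estimated share for 38 of the 56 core genes. Transcription starts were not measured.

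Other motifs were searched on both strands of the whole 300-base promoter. CCGGAA, the core of an ETS factor motif, occurred in 28 of the 56 core promoters, in 57.4% of the mitochondrial set, in 28.1% of other expressed genes and in 14.9% of all promoters. AAGATGGC, a YY1-type motif, occurred in 7.14% of core promoters, in 17.6% of the mitochondrial set and in 4.69% of other expressed genes, against 2.75% of all promoters. GGGCGG, an Sp1-type motif, was found in 60.7% of core promoters and 66.9% of other expressed genes, against 35.7% of all. TATAAA, searched on the gene's strand from 40 to 15 bases before the start, was in 0 of the 56 core promoters, in 1.09% of other expressed genes and in 2.11% of all promoters. Overlaps between motifs were not resolved.

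Depth was 31211128 expected counts for replicate 1 and 26957198 for replicate 2, an expected count being the estimated number of reads of a gene after shared reads are divided. Forebrain markers were present in both libraries, with a summed level of 848 and 999.7 TPM (transcript level, scaled by length and library total) over 8 genes, among them Neurod6, a gene of young cortical neurons. Of 6 hindbrain and spinal cord markers, 4 had 0 counts in both libraries, and the 6 summed to 0.02 and 0.37 TPM.

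Core ribosomal protein mRNAs were abundant and uneven. Their median was 416 TPM in replicate 1 and 428 in replicate 2, and their quartiles were 267 and 556 TPM in replicate 1 and 292 and 608 in replicate 2. TPM is a level per length of transcript, so a comparison of genes depends on the length used for each. Across the 76 core genes, effective length and mean TPM correlated with a Spearman's rho of -0.31. With copies pooled the rho was also -0.31. The cause of this relation was not tested. All 83 members together held 3.81% ± 0.141 of the TPM on genes (SD, n = 2) and 1.31% ± 0.0348 of the expected counts. At least 100 TPM in both libraries was reached by 73 of the 76 core members, and 57 stood among the 500 highest protein-coding genes. The genes for the mitochondrial ribosome, 77 in number, had a median of 72.0 TPM, and the 13038 protein-coding genes that reached 1 TPM in each library had a median of 21.9 TPM.

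Rpl41, the gene of the smallest ribosomal protein, had the highest level with 1694 TPM in replicate 1 and 1751 in replicate 2. Rps19, the gene most often mutated in Diamond-Blackfan anaemia, followed at 1083 and 1121 TPM. Rpl32 of the large subunit was at 918 and 1075 TPM. Rpl41 and Rps19 were each set apart from the next gene in the order, with no overlap between libraries. Rps14, a small subunit gene linked to the 5q- form of myelodysplasia, was at 837 and 940.7 TPM, Rps29 at 818 and 929.8, Rpl7 at 800.1 and 904 and Rplp0 at 778 and 827. These 4 overlapped with their neighbours in the order across libraries, but kept the same order among themselves within each library.

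At the other end, Rpl5, which carries 5S rRNA into the large subunit, was listed at 63.1 and 65.7 TPM. Rpl27a was at 64.0 and 74.0 TPM and Rpl12, which sits at the base of the stalk, at 86.0 and 84.4 TPM. Rpl27 had 103 and 111 TPM, Rps23 of the decoding centre 117 and 130 TPM, Rpl37 134 and 153 TPM, Rps12 138 and 143 TPM, and Rpl22 141 and 163 TPM. Between Rps12 and Rpl12 each gene stood apart from the next without overlap of the libraries, and the same held for Rpl12 over Rpl27a. The highest core level was 26.8 times the lowest in replicate 1 and 26.7 times in replicate 2.

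This order was nearly identical in the 2 pools. The SD of log2 TPM over the 76 core genes was 0.92 in each library, while the SD of the log2 difference between libraries over the same genes was 0.09. Across genes, which are not independent replicates, log2 TPM of the libraries correlated with Pearson's r of 0.996 and TPM with Spearman's rho of 0.991 (n = 76 genes). Finer distinctions were described by overlap. Of the 75 neighbouring pairs in the order, 60 overlapped between libraries and 15 did not. Overlap was judged across libraries, without pairing the values of the same library. In TPM, 64 of the 76 core genes were higher in replicate 2, so an overlapping pair can keep its order in each library. An overlap therefore does not show that the order changed.

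**Figure D1:**
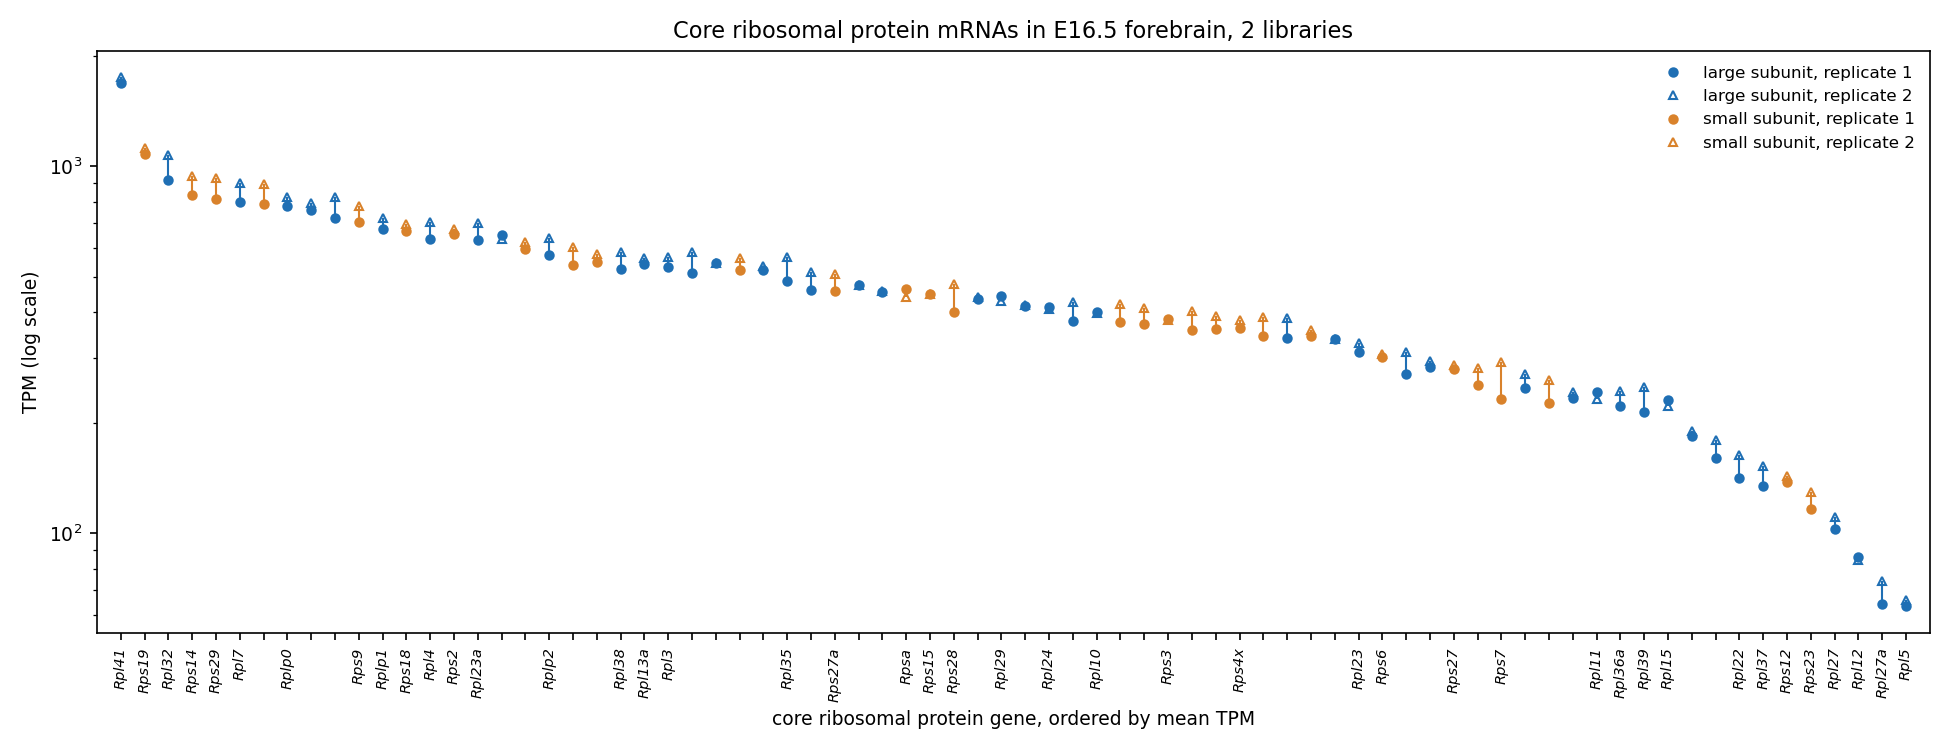
TPM of the 76 core ribosomal protein genes (log scale) in replicate 1 (filled circles) and replicate 2 (open triangles), ordered by mean level and coloured by subunit; lines join the 2 libraries, and names are given for genes described in the text. Levels run from 1694 and 1751 TPM for Rpl41 to 63.1 and 65.7 TPM for Rpl5, and the libraries lie close together next to this range.

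Ribosomal protein genes that the naming rule does not take stood at core levels. Rack1, a scaffold on the small subunit head, had 389 ± 18 TPM, and Rps3a1, whose name ends in a letter and a number, had 587 ± 60.8 TPM. Fau, which encodes a small subunit protein fused to a ubiquitin-like protein, had 335 ± 5.93 TPM. Rps27a, a core member whose protein is made as a fusion to ubiquitin, had 483 ± 37.7 TPM.

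Ribosomal protein mRNAs have left many processed copies in the mouse genome, made by reverse transcription and without introns. Of the listed pseudogenes and retrogenes, 1231 matched a ribosomal protein transcript with at least 80% identity over at least 50% of their length, 1188 of them a core gene, and every core gene had a copy. Of the 1231, 680 had 0 counts in both libraries and 343 had counts in both. At least 100 TPM in both libraries was listed for 23 copies. Of these 23, 19 were identical to the parent over the aligned span and the lowest identity was 99.4%, while 16 were listed above their own parent. Together the copies of members took 15.2% and 15.8% of the counts on members and copies. With reads this alike, the division of counts between a gene and its copy is an estimate, and whether a copy is transcribed cannot be told apart from reads of its parent.

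Low members of the core were often those with such copies. At least 10% of the family's counts lay on copies for 26 core genes in both libraries and at least 50% for 7, whereas 23 core genes had under 1%. Among the 20 lowest core genes 15 had a mean of 10% or more, and among the 20 highest 2 did. As listed, the 26 had a median of 262 ± 23.7 TPM and the 50 others 504 ± 30.5 TPM (SD, n = 2). With the copies' counts given to the parent at its own effective length, the medians were 464 ± 28.5 and 514 ± 39.9 TPM. The SD of log2 TPM over the core went from 0.92 to 0.68 in both libraries, and the highest level was then 11.98 and 10.69 times the lowest. Adding the copies' own TPM instead gave an SD of 0.67 in both libraries and a ratio of 12.3 and 12.2. By that measure the highest gene was Rps29, at 1748 and 2009 TPM, and no longer Rpl41. Across the 76 genes the percent of counts on copies and the level correlated with a Spearman's rho of -0.51 as listed and -0.13 after pooling. Both measures share the same reads, so this is a description.

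Rpl5 was listed with 1581 and 1415 expected counts, and its identical copy Gm15500 (chromosome 7) with 6258 and 5362 counts. Pooled with its copies, Rpl5 was at 314 ± 0.757 TPM, and its place in the order went from 76 to 65. Rps23 had 1440 and 1344 counts beside 4552 and 4482 on Rps23-ps1, and pooling took it from 123 to 529 ± 54.3 TPM. Rpl27 went from 107 to 508 ± 36.5 TPM, with 78.7% and 79.2% of its family's counts on copies. Rps27, whose protein contains a zinc finger, had 78.1% and 80.8% of its family's counts on copies, most of them on the retrogene Rps27rt, which M21 types as protein coding. Pooled, it moved from place 57 to place 2, at 1390 ± 152 TPM. Such values depend on the length used, since copies are often listed with another effective length than the parent. With the copies' own TPM added, Rps27 stood at 922 ± 88.7, Rps23 at 938 ± 99.8, Rpl27 at 783 ± 56.7 and Rpl5 at 439 ± 4.48 TPM. Rpl22, by contrast, had 0.177% and 0.268% of its counts on copies and was the lowest core gene after pooling, at 153 ± 15.9 TPM. Rpl12 and Rpl27a, with 56.3% and 61.0% of their families' counts on copies, went from 85.2 to 195 ± 6.65 and from 69.0 to 177 ± 18.7 TPM. They were then the next lowest after Rpl22, but not with the copies' own TPM added, where they stood at 255 ± 11.6 and 381 ± 41.9 TPM. Rpl22 was lowest by both measures.

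Many copies differ from the parent at a few bases, and some chosen pairs were compared base by base. Gm6472 is an intronless copy of Rps7 on the X chromosome (152909505 to 152910155, minus strand), and Rps7 itself lies on chromosome 12 (28630854 to 28635953, minus strand). Over the 582 coding bases they differ at 3 places, T26G, G48A and G123T, with the base of Rps7 first and positions counted from the first coding base. These windows of the coding sequence show how few bases separate the reads of the 2 loci, with T26G in capitals.
Rps7: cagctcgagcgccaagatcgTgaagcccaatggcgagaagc
Gm6472: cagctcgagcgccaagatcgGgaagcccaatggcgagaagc

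Gm6472 was listed with 2219 and 1957 counts, and Rps7 with 3767 and 3979. No base differed between Rpl5 and Gm15500 over 891 coding bases, or between Rpl15 and Rpl15-ps3 over 612. Rpl15-ps3 was listed with 5493 and 5251 counts, against 5927 and 5007 on Rpl15. The quantification also gives a posterior SD, its own estimate of the error of a count. This was 675 and 600 counts for Rpl15-ps3 and 45.8 and 39.9 counts for Gm15500. It could not be checked against the reads.

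**Figure D2:**
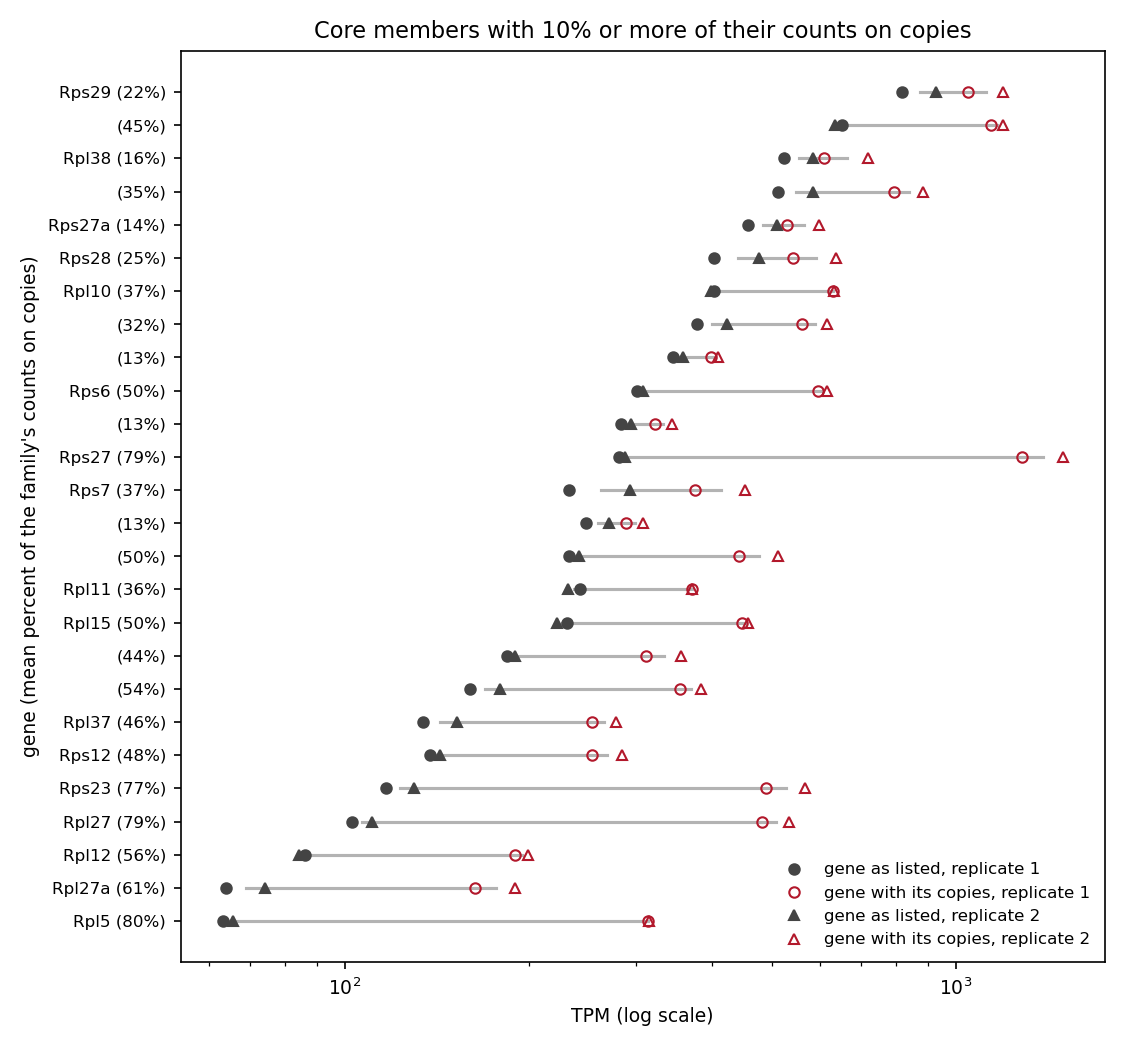
TPM (log scale) of the 26 core genes with at least 10% of their family's counts on copies, as listed (filled) and with the copies' counts pooled (open red), in replicate 1 (circles) and replicate 2 (triangles); the percent on the vertical axis is the mean share of counts on copies, and names are given for genes described in the text. Rpl5, Rpl27, Rps23 and Rps27 move farthest, Rpl5 from 64.4 to 314 TPM and Rps27 from 284 to 1390 TPM.

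Large and small subunit genes had similar medians. The 46 large subunit genes were at 426 TPM in replicate 1 and 428 in replicate 2, and the 30 small subunit genes at 394 and 432 TPM, so that the order of the subunits differed between the libraries. With copies pooled at the parent's length, the medians were 465 ± 5.61 and 549.5 ± 31.1 TPM (SD, n = 2). As listed, the large subunit genes were more spread, with an SD of log2 TPM of 1.02 against 0.73 (0.72 against 0.61 pooled), and 6 of the 8 lowest core genes belong to the large subunit.

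Grouped by place in the ribosome, genes of the same site differed in their listed levels, and several of these gaps shrank or turned when the counts on copies were pooled. The stalk recruits elongation factors. Rplp0, its anchor, had 802.6 ± 34.1 TPM (SD, n = 2), and the acidic proteins Rplp1 and Rplp2, which are present as pairs in the ribosome, had 699 ± 32.4 and 606 ± 46.9 TPM. Rpl12 at its base had 85.2 ± 1.16 TPM as listed, and Rplp0 was 9.42 times as high. Pooled at the parent's length Rplp0 was 4.14 times as high as Rpl12, and with the copies' own TPM added 3.16 times. The 5S ribonucleoprotein, which also binds MDM2 when ribosome assembly fails, holds Rpl5, listed at 64.4 ± 1.79 TPM, and Rpl11, listed at 238 ± 7.21 TPM. Rpl11 was 3.69 times as high as Rpl5 as listed, 1.18 times pooled and 0.955 times with the copies' own TPM added, so the data give no firm order. Around the polypeptide exit tunnel, 8 genes ran from Rpl22 at 152 ± 15.7 TPM to Rpl23a at 666 ± 52.3 TPM. Rpl10 and Rpl24, which join the large subunit late in the cytoplasm, stood at 400.2 ± 2.52 and 412 ± 4.67 TPM as listed, and pooled at 631 ± 0.804 and 437 ± 3.95 TPM.

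In the small subunit, proteins of the mRNA entry site were encoded at 384 ± 1.66 TPM (Rps3), 666 ± 14.2 TPM (Rps2) and 744 ± 51.7 TPM (Rps9). Those of the exit site ran from Rps28 at 439.9 ± 53.1 TPM to Rps14 at 889 ± 73.2 TPM. Rps14 was 2.02 times as high as Rps28 as listed, 1.51 times pooled and 1.08 times with the copies' own TPM added. At the decoding centre Rps15 had 449 ± 1.52 TPM and Rps23 had 123 ± 9.23 TPM as listed. Pooled, the direction turned, with Rps15 at 451 ± 0.563 and Rps23 at 529 ± 54.3 TPM. Rps6, the substrate of the S6 kinases downstream of mTOR, was at 305 ± 4.50 TPM as listed and at 606 ± 15.4 TPM pooled. The 19 Diamond-Blackfan anaemia genes ran, as listed, from Rpl5 to Rps19, which was 17.1 times as high, with a median of 372 TPM in replicate 1 and 412 in replicate 2. Pooled at the parent's length, the lowest was still Rpl5 and the highest was Rps27, 4.42 times as high. With the copies' own TPM added, both ends changed, from Rps24 at 387 TPM to Rps29 at 1879 TPM, 4.86 times as high.

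Between the pools, core members differed little under TMM scaling, which centres the bulk of genes, and mostly in the same direction. The log2 ratio, replicate 2 minus replicate 1 of scaled counts, had a median of 0.08 over the 76 core genes, against 0.01 over all 13927 genes tested, those averaging 50 or more counts. It was above 0 for 59 core genes (77.6%), where 52.0% of all tested genes were. No member was apart by 0.32 or more on the log2 scale (a ratio of 5 to 4) with a 95% counting interval that excluded equality, among the 80 members tested, while 6.65% of all tested genes were so higher in replicate 2 and 11.0% higher in replicate 1. At least 2-fold apart were 0 members and 1.38% of tested genes. Scaled to the spike-ins instead, the median log2 ratio was 0.64 for members and 0.56 for all tested genes, and 80 of 80 members and 81.2% of tested genes were past 0.32 toward replicate 2. Every core gene had at least 706 counts in each library, whereas a mean of 50 was enough for a gene to be tested. The counting intervals lay above 0 for 42 core genes, held 0 for 31 and lay below 0 for 3. Over all tested genes, many with fewer counts and so wider intervals, 26.5% lay above 0 and 24.0% below.

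Rps7, a small subunit protein, had the largest ratio, 0.31 (interval 0.25 to 0.38), with 233 and 293 TPM. Its close copies Gm6472 and Gm9493 were listed with 2219 and 1957 counts and with 58.4 and 214 counts. For members too, the interval does not cover the division of shared reads with copies. Next came Rps28 at 0.23 (0.14 to 0.32) and Rpl35 at 0.22 (0.16 to 0.28). Rpsa, the laminin receptor homologue, was lowest at -0.09 (-0.12 to -0.06), then Rpl11 at -0.07 (-0.15 to 0.01). Small subunit genes were above 0 in 27 of 30 cases and large subunit genes in 32 of 46, with medians of 0.09 and 0.08. Core genes with an effective length under 500 bases had a median of 0.14 (27 of 29 above 0), and the 47 longer ones 0.06. Protein-coding genes as a whole were split at 1000 bases, with a median of -0.02 for shorter and 0.02 for longer ones. The 2 splits use unlike limits and cannot be compared directly. The 59 tested copies of members had a median of 0.18. By the same limit of 0.32, 18 of them were called higher in replicate 2 and 5 in replicate 1. Of all tested genes, 6.65% and 11.0% were so called. Counts on copies are estimated divisions of shared reads, and the counting interval does not cover that error. A shift of the copies between the pools cannot be read from these calls.

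Markers of several cell types also differed between the pools, counted here by the log2 ratio. Markers of meninges, bone and cartilage summed to 209 TPM in replicate 1 and 502 in replicate 2 (8 of 8 higher in replicate 2, none at 0), cell cycle genes to 598 and 722.5 TPM (7 of 8), radial glia genes to 1780 and 2230 TPM (8 of 8), and erythroid genes to 10593 and 13409 TPM (7 of 7). Neuronal markers summed to 4257 and 3896 TPM, with 2 of 8 higher in replicate 2. Of all tested genes, 52.0% were higher in replicate 2. In bulk tissue, a change in the number of cells of a type and a change in RNA per cell cannot be told apart. The part of these shifts in the ratios of the ribosomal protein genes was not tested.

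**Figure D3:**
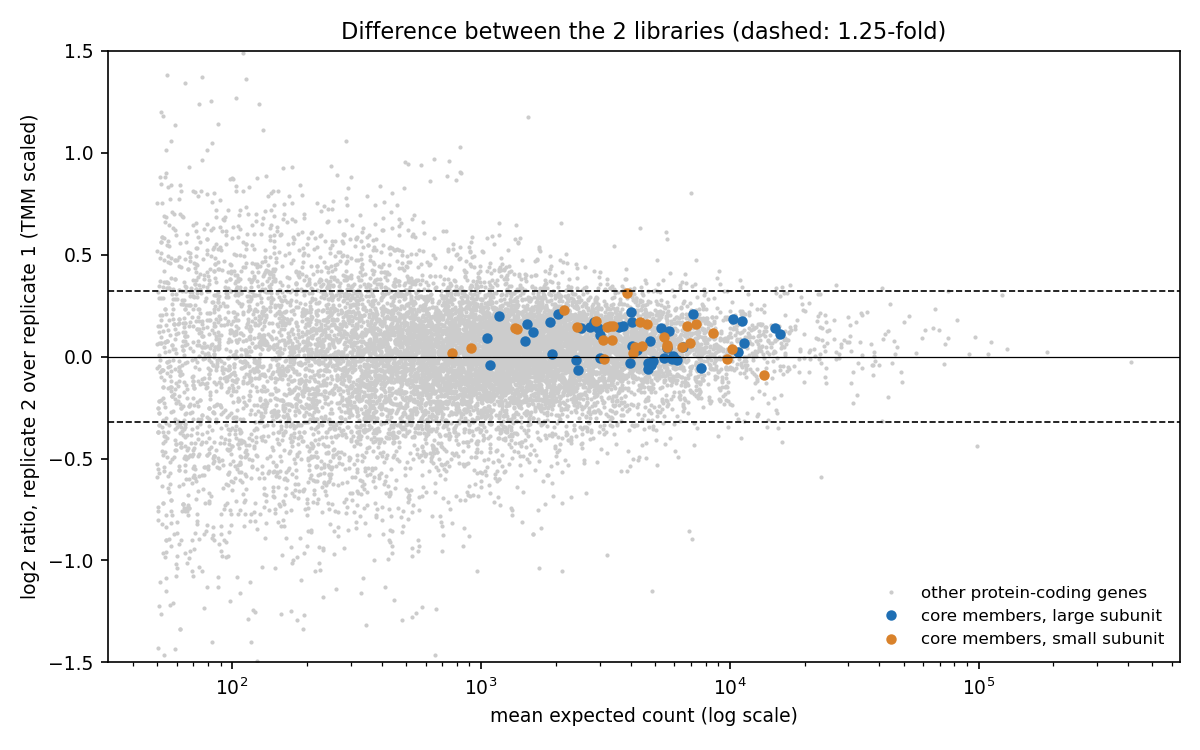
Log2 ratio of TMM-scaled expected counts, replicate 2 over replicate 1, against the mean expected count (log scale) for core members of the large (blue) and small (orange) subunit and for other tested protein-coding genes (grey); dashed lines mark 0.32 above and below 0, and 32 genes fall outside the plotted range. All core members lie between -0.09 and 0.31, inside the dashed lines.

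Genes that make or control ribosomes were described by lists. Ribosome biogenesis factors had a median of 59.7 and 62.4 TPM over the 39 found, from Utp20 of the small subunit processome at 4.05 ± 0.389 TPM to Npm1, a nucleolar chaperone, at 416 ± 24.7 TPM. Their median log2 ratio was 0.04, with 25 of 39 above 0 and none past 0.32. Other mRNAs known for a TOP tract had a median of 337 and 348 TPM and a median ratio of 0.08, with 18 of 20 above 0. The list ran from Eif3f at 70.0 ± 3.98 TPM to the elongation factor gene Eef1a1 at 3375 ± 278 TPM. Vim, an intermediate filament gene that is also a radial glia marker, was the only 1 of the 20 past 0.32, with 344 and 467 TPM and a ratio of 0.42 (0.38 to 0.46). Of 14 genes that control TOP mRNA translation and ribosome supply, 7 were above 0, with a median of -0.01. Rptor, the mTORC1 scaffold, was lowest at 8.26 ± 1.49 TPM. Mycn was highest at 149 ± 25.9 TPM and was called higher in replicate 2, with a ratio of 0.34 (0.28 to 0.39). The mitochondrial ribosomal protein genes had a median ratio of -0.02, with 33 of 77 above 0. Of all tested genes, 52.0% were above 0, 6.65% were called higher in replicate 2 and 11.0% higher in replicate 1. Beside these shares, 1 called gene in a list of 20 or of 14 does not stand out.

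Paralogs of core members fell into detected and undetected genes. Rpl22l1, a paralog of the RNA-binding protein gene Rpl22, was at 146 and 165 TPM beside Rpl22 at 141 and 163 TPM, a log2 ratio of 0.03 ± 0.03 (SD, n = 2). The values of the 2 genes overlapped. Rpl36al was at 249 and 258 TPM beside Rpl36a at 223 and 245 TPM, a log2 ratio of 0.12 ± 0.06. Rps27l, a p53 target, was at 210.2 and 245 TPM beside Rps27 at 281 and 287 TPM, which is -0.32 ± 0.13 on the log2 scale. That ratio takes Rps27 as listed, with most of its family's counts on copies. Against Rps27 pooled at its own length the log2 ratio was -2.61, and with the copies' own TPM added it was -2.02. Rpl7l1, whose product acts in ribosome assembly, was at 80.8 and 90.7 TPM beside Rpl7 at 800.1 and 904 TPM, a log2 ratio of -3.31 ± 0.01.

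Paralogs known from muscle and testis were at or near 0. Rpl3l, a heart and skeletal muscle gene, had 0 counts in both libraries. Taking 3 counts as the most that a count of 0 allows in a library, it was at least 3011-fold lower than Rpl3 in replicate 1 and 2688-fold in replicate 2. Rpl10l, a testis gene, also had 0 counts in both and was at least 2324-fold and 1934-fold lower than Rpl10. Rpl39l had 0 counts in replicate 1, at least 773-fold under Rpl39. In replicate 2 it had 2 counts, 892-fold under Rpl39 with a counting interval of 247-fold to 7370-fold. Rps4l, typed as a transcribed pseudogene and so no member, was at 109 and 85.8 TPM beside Rps4x at 363 and 381 TPM, a log2 ratio of -1.94 ± 0.30.

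**Figure D4:**
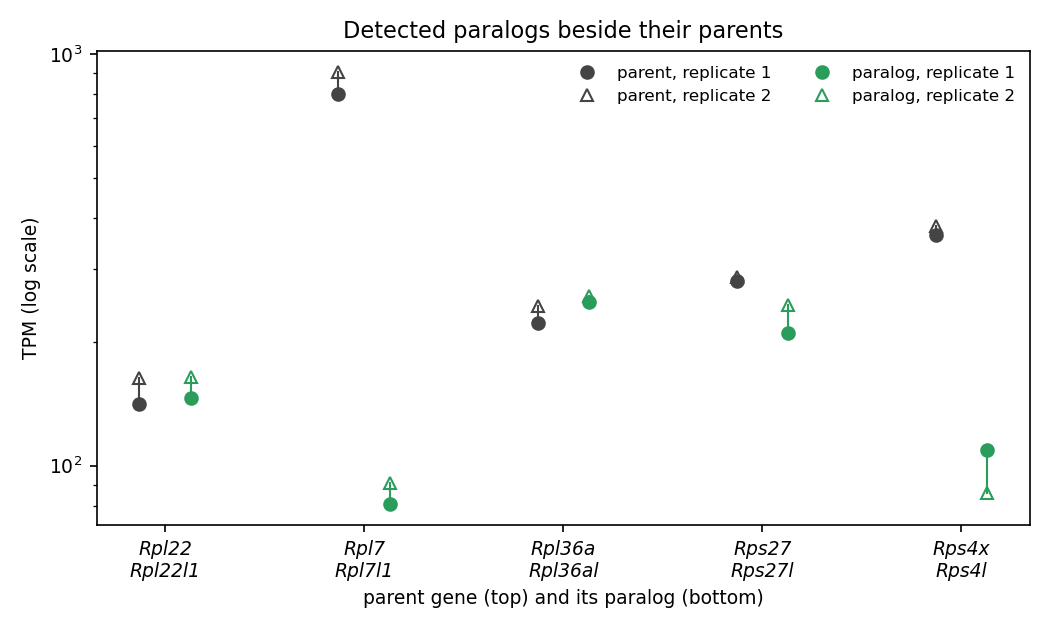
TPM (log scale) of the 5 detected paralogs (green) beside their parents (grey) in replicate 1 (filled circles) and replicate 2 (open triangles). Rpl22l1 and Rpl36al lie beside their parents, Rps27l below Rps27 as listed (-0.32 on the log2 scale, against -2.61 with copies of Rps27 pooled), and Rpl7l1 and Rps4l well below Rpl7 and Rps4x.

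Most core genes kept the same leading transcript. Several transcripts were listed for 57 core genes, and 56 had the same leading transcript, by percent of the gene, in both libraries. Over 6691 protein-coding genes at 10 TPM or more with several transcripts the share was 92.8%. Rpl29 was the exception: Rpl29-201 made up 54.8% in replicate 1 and 46.1% in replicate 2. For 29 of the 57 the leading transcript held at least 80% in both libraries.

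In 4 of the 57 core genes with several transcripts, the leading transcript is typed in M21 as something other than protein coding. Of the 6691 genes, 8.39% had such a leader, a similar share, so the core genes did not stand out in this. Rps20-201, a retained intron form, held 91.0% and 92.5% of its gene. The leaders of Rpl35 and Rpl23, processed transcripts without an annotated coding sequence, held 85.4% and 86.5%, and 65.4% and 68.4%. Rpl12-201, marked for nonsense-mediated decay, held 58.1% and 62.1%. The leading transcript of Rpl13a, at 35.0% and 37.7%, is not in M21. Division of reads among overlapping transcripts of short genes is estimated, and these percents have no counting interval.

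Core genes are short and host small nucleolar RNAs, which guide modification of ribosomal RNA and are cut from introns. The median length of the leading transcript was 645 bases, from 255 to 2045, against 2676 bases over expressed protein-coding genes. The longest was Rpl5-201 of Rpl5. Small nucleolar RNA genes lie inside 29 of the 76 core genes on the same strand (38.2%, 56 such genes in all), against 1.88% of the 13038 expressed protein-coding genes. Rpl4 hosts 5 and Rpl13a hosts 4. Core genes lie on 19 chromosomes, with 14 on chromosome 7 and 4 on the X chromosome.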

How the data were processed

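Members and gene lists were chosen with earlier results of these data known. The authors used the mm10 genome and GENCODE M4 transcripts, per the notes deposited with the files. Aligner and quantifier: not given in the sources used here. Column names are those RSEM writes. From these reads the authors made and deposited expected counts (estimated counts of reads per feature), TPM and FPKM per gene and transcript, and each transcript's percent of its gene, per the file headers. TPM was deposited with spike-ins and tRNA features inside its sum; shares use genes only.

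Symbols and types came from GENCODE M21 (GRCm38), and 42462 of 43346 identifiers matched. Expected counts were rounded and scaled with TMM (edgeR 4.0.16, R 4.3.3). Log2 ratios used a prior count of 0.5 and exact 95% Clopper-Pearson intervals, which cover counting error only. The log2 ratio and its interval were tested on simulated counts, without shared reads and without variation between pools. The other procedures were not simulated. Copies were matched with blastn 2.17.0 after seeing the data. Tables, intervals and plots were made in Python 3.11.15 (scipy 1.17.1, matplotlib 3.10.9, pandas 2.3.3, numpy 2.4.6). The text names the 8 highest and 8 lowest core genes, every paralog, the extremes of each list and genes past the fold. It also names members whose leading transcript is not typed protein coding or changes between libraries. Rps7, Rps28, Rpl35, Rpsa and the copies were chosen after their values were seen, as were further members given for their role. Paralog ratios are on the log2(TPM + 0.1) scale. Separate pools are biological replicates per the labels. Alternatives covered scaling, count minimum, posterior means, FPKM, pseudocounts, motif limits and each replicate left out. Protein sequences were not analysed here. Some items that these rules would name are not reported here.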

Additional observations from a re-analysis of the deposited data

How the results depend on the processing

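Of 126 alternatives computed, 93 stayed within the spread between replicates. For counts of genes the limit was 1.5 times. For the median log2 ratio it was 0.0632, the median width of a counting interval on each side. Part of the 93 could not move by construction, so the number does not measure stability. Leaving out 1 of 2 replicates shifts a mean by less than their SD. FPKM rescales all genes of a library alike, which leaves shares and spreads unchanged. Minimums of 20 and 200 counts kept the same members. The median level of the 83 members, 398 TPM, was 231 as FPKM, 471 when TPM was rescaled to protein-coding genes, 422 over core members only and 456 with copies pooled; leaving out a replicate gave 385 to 412. The spread among core members (SD of log2 TPM, 0.9179) was 0.9142 with posterior means, 0.9044 over genes whose leading transcript has at least 500 bases and 0.678 with copies pooled. The ratio of large to small subunit medians, 1.04, turned to 0.992 without replicate 1 (1.08 without replicate 2) and to 0.847 with copies pooled, so no order of the subunits is given. Spike-in scaling moved the median log2 ratio of all tested genes from 0.01 to 0.56 and that of members from 0.09 to 0.64, and put 80 members and 81.2% of all tested genes past 0.32 in replicate 2's direction. Under the other 3 scalings 58 to 63 of 80 members were above 0, and none was called. The TOP-like share, 53.6%, was 76.8% within 25 bases (36.0% of other expressed genes) and 37.5% with 7 pyrimidines (8.28%). The share of counts on copies, 15.5%, was 7.41% when only pseudogenes named after a member were taken. Copies were pooled as an alternative chosen after seeing the data. The log2 ratio of Rps15 over Rps23, 1.87, turned to -0.23 pooled and -1.05 with the copies' own TPM added, and that of Rpl11 over Rpl5, 1.88, was 0.24 pooled and turned to -0.067 with the copies' own TPM added. The cause of these shifts was not tested, beyond what each setting changes by construction. No paired analysis was possible because the series has 1 group. A ratio between libraries cannot be computed without 1 of them.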
